A study of Mus musculus with 63 samples.

Results

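The Hox genes are the homeobox genes of 4 chromosomal clusters, and every gene whose symbol is Hoxa, Hoxb, Hoxc or Hoxd followed by a number was taken, which gave 39 of the 47517 gene symbols in each RNA-seq table. HoxA has 11 of them, HoxB has 10, and HoxC and HoxD have 9 each. The study compared mouse extended pluripotent stem (EPS) cells with embryonic stem (ES) cells and changed the level of the transcription factor YY1 in each. Each Hox gene was counted in 22 RNA-seq libraries of C57BL/6 cells in 10 groups. Undifferentiated cells were EPS cells with the Yy1 hairpin (EPS shYy1, 2 libraries), EPS cells with the control hairpin (EPS shCtrl, 2), ES cells overexpressing Yy1 (ES oeYy1, 2), ES cells with the overexpression control (ES oeCtrl, 2), and EPS and ES cells for which no construct is given (3 each, called untransduced here). The other 4 groups, with 2 libraries each, are the same 4 construct lines after 6 days in F4H medium, called day 6. EPS cells were kept in LCDM medium and ES cells in 2i medium, on inactivated mouse embryonic fibroblasts or on Matrigel; which of these a library came from is not given in the sources used here. The sources also do not say whether libraries of a group came from separate cultures, so a p-value here reflects only how far libraries of a group differ, which may be technical. They do not give the hairpin sequences, the vectors or the number of clones.

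Hox genes encode homeodomain transcription factors that give cells along the head-to-tail axis of the embryo their position. In vertebrates the genes of a cluster lie in the order in which they are used: low-numbered genes sit at one end of the cluster and are switched on first and in the front of the body, and high-numbered genes follow later and further back. Polycomb complexes keep the clusters silent in pluripotent cells, trithorax MLL complexes, retinoic acid, WNT signalling and CDX factors open them, and YY1 is the mammalian relative of the fly Polycomb recruiter Pleiohomeotic. Fibroblasts of the embryonic body wall and limbs express Hox genes, which matters for cells that may be grown on fibroblast feeders.

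The clusters are compact. On GRCm38.p6 in RefSeq the HoxA members lie on chromosome 6, and the HoxB members span chr11:96194316-96368254, the HoxC members chr15:102921131-103036856 and the HoxD members chr2:74668225-74765142. Because of this packing 6 HoxA, 5 HoxB, 1 HoxC and 4 HoxD members overlap another counted gene. Hoxa3 spans Hoxa4, Hoxa5 and Hoxa6, Hoxb3 spans Hoxb4, Hoxd3 overlaps Hoxd4, and Hoxd10 overlaps Hoxd11. Each library has ambiguous counts (3.70% to 5.32% of all counts) that were given to no gene. Whether these hold the reads shared by overlapping genes, and whether the counting used strand, is not given in the sources used here. The values of these genes are therefore uncertain by the reads they may share or lose.

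RefSeq promoter windows (250 bases before to 50 after a gene's start, GRCm38.p6) were at hand for 22 of the 39 genes, in 24 windows. Their median GC content was 57.67% and their median number of CpG dinucleotides 14.5, against 52.67% and 7 over all 32851 windows. The Hoxd9 window is printed because Hoxd9 rose in every construct line by day 6, with its 20 CpG dinucleotides in capitals. The Hoxb1 and Hoxb8 windows are printed because both genes were lower in the day 6 libraries labelled shYy1 than in their controls. Capitals mark a match to TGATNNAT, the letters of joint HOX and PBX sites, in Hoxb1, and matches to TTTATNG, the letters of CDX sites, in Hoxb8. All 3 lie on the plus strand, Hoxd9 at chr2:74697513-74697812, Hoxb1 at chr11:96365508-96365807 and Hoxb8 at chr11:96281655-96281954.
Hoxd9: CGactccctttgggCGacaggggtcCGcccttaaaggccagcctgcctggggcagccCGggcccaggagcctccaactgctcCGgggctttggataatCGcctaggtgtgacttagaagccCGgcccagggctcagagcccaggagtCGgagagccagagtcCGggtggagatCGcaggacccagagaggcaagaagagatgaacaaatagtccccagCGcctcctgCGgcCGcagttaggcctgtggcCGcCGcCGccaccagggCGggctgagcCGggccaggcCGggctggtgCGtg
Hoxb1: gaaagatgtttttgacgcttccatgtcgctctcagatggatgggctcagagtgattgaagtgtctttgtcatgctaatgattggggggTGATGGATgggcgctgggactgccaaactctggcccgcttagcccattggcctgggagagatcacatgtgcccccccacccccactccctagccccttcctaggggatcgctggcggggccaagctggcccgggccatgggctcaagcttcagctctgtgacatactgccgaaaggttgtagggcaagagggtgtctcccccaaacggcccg
Hoxb8: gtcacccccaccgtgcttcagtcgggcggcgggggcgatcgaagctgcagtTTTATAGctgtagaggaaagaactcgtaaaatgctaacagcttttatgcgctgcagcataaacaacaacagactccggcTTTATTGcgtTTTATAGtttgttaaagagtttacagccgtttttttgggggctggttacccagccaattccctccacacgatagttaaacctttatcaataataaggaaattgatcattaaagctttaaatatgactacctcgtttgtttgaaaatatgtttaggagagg
Each motif was searched on both strands. TGATNNAT was found in 4 of the 24 windows (those of Hoxa2, Hoxb1, Hoxb8 and Hoxd11), and in 8.846% of all windows. TTTATNG was found in 2 (Hoxb8 and Hoxd4), against 10.91% of all windows. CCATNTT, the letters of YY1 sites, was found in 2 (Hoxc4 and Hoxd10), against 16.076% of all windows. The matches in the Hoxb8 window do not overlap each other. These are matches of letters, with no measurement of binding.

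The libraries held 13672061 to 20782348 counts assigned to genes, so 3 counts, the upper limit that a count of 0 allows, correspond to 0.144 to 0.219 CPM (gene counts scaled to the same library total). Such limits cover counting error only. CPM is not scaled for gene length, so each gene is compared with itself across groups. In each comparison below, most genes given with values were picked for a small adjusted p. That their libraries do not overlap between groups follows largely from this choice and is no further support. The share of all genes whose libraries do not overlap was not computed. Summed CPM of 10 pluripotency markers was 228 to 472 in day 6 libraries and 4921 to 8387 in undifferentiated ones. Yy1 had 70.5 and 70.5 CPM in EPS shYy1 and 134 and 134 CPM in EPS shCtrl, and 934 and 941 CPM in ES oeYy1 and 120.4 and 124 CPM in ES oeCtrl. At day 6 Yy1 had 331 and 324 CPM in ES oeYy1 and 119.5 and 126 CPM in ES oeCtrl. In the day 6 libraries labelled shYy1 it had 114 and 109.6 CPM, against 129 and 123 CPM in day 6 EPS shCtrl, and the difference was not called (log2 fold change -0.03 ± 0.05 SE, adjusted p = 0.567). Lower Yy1 mRNA was therefore not detected in the libraries labelled shYy1 at day 6. Yy1 had 108, 118 and 116 CPM in untransduced EPS cells and 116, 108 and 129.8 CPM in untransduced ES cells. Untransduced EPS and ES replicate 3 and the 2 EPS shCtrl libraries stood further from the other libraries of their groups than other replicates did. Lines also differed in the summed CPM of 4 Y-linked genes, which was 139.7 and 139 in EPS shYy1 and 2.71 and 2.59 in EPS shCtrl, and 26.6 and 25.6 in ES oeYy1 and 108 and 128 in ES oeCtrl. At day 6 the Y-linked sum was 174.5 and 167 CPM in the libraries labelled shYy1 and 17.0 and 16.3 CPM in EPS shCtrl. It was 71.2 and 65.8 CPM in day 6 ES oeYy1 and 100 and 104 CPM in day 6 ES oeCtrl. The sum thus also differed between stages within lines, and its bearing on the stage comparisons was not tested. Line differences of this kind and the effect of the construct cannot be told apart here.

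Most Hox genes were near zero in undifferentiated cells. Taking a group mean under 1 CPM as near zero, 7 of the 39 genes were near zero in all 10 groups: Hoxa2, Hoxa4, Hoxa6, Hoxb5, Hoxb7, Hoxd3 and Hoxd12. Their highest group means lay between 0.119 CPM (Hoxd12 in untransduced ES cells) and 0.766 CPM (Hoxa4 in EPS shCtrl), and Hoxd12 never had more than 3 counts in any library. Only 3 genes, Hoxb9 and Hoxc13 among them, had a mean of at least 1 CPM in every group, and the remaining 29 were near zero in some groups. By group, 22 genes were near zero in the day 6 libraries labelled shYy1, 15 in day 6 EPS shCtrl, 15 in day 6 ES oeYy1 and 22 in day 6 ES oeCtrl. Undifferentiated EPS shYy1 had 25 near zero, EPS shCtrl 29, ES oeYy1 30, ES oeCtrl 26, untransduced EPS 35 and untransduced ES 21. In all 6 undifferentiated groups 17 genes were near zero, and 10 of these reached 1 CPM in at least 1 day 6 group. The 3 genes that went the other way, reaching 1 CPM in an undifferentiated group and near zero in all 4 day 6 groups, were Hoxb13, Hoxc11 and Hoxc12.

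The clusters were used differently at the 2 stages. Summed over its members, HoxD had 26.7 and 25.0 CPM in the day 6 libraries labelled shYy1, 35.8 and 33.7 CPM in day 6 EPS shCtrl, 49.7 and 51.6 CPM in day 6 ES oeYy1 and 25.5 and 26.3 CPM in day 6 ES oeCtrl. The 14 undifferentiated libraries had 1.78 to 10.2 CPM, so the stages did not overlap for HoxD. HoxC was lower at day 6 in 3 lines and higher in EPS shCtrl. It had 16.2 and 13.4 CPM in the day 6 libraries labelled shYy1 and 27.8 and 25.0 CPM in undifferentiated EPS shYy1, and 21.0 and 19.6 CPM in day 6 EPS shCtrl and 8.50 and 3.35 CPM in undifferentiated EPS shCtrl. In the ES lines HoxC had 11.7 and 13.5 CPM in day 6 ES oeYy1 and 10.7 and 12.6 CPM in day 6 ES oeCtrl, against 32.0 and 34.0 CPM in undifferentiated ES oeYy1 and 48.6 and 45.0 CPM in undifferentiated ES oeCtrl. HoxA was highest in day 6 ES oeYy1, with 46.1 and 51.8 CPM, against 24.5 and 23.8 CPM in day 6 ES oeCtrl. These sums follow the few genes with most reads.

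**Figure D1:**
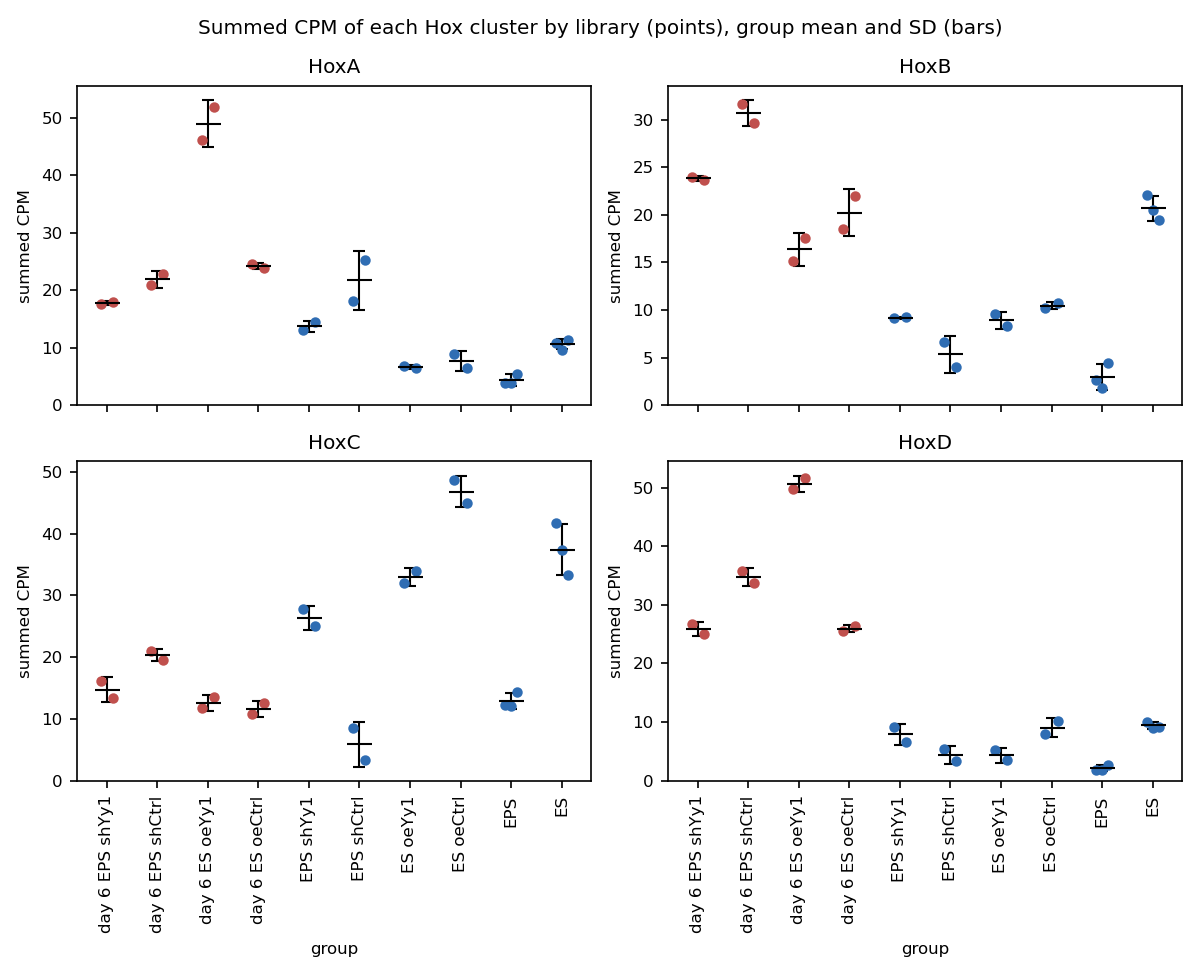
Summed CPM of the members of each Hox cluster (y axes) in 10 groups (x axes); points are libraries (red day 6, blue undifferentiated), bars are the group mean and SD (n = 3 for untransduced EPS and ES, n = 2 otherwise). HoxD is higher in every day 6 library than in every undifferentiated library, and HoxC is highest in undifferentiated ES lines.

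The genes with most CPM in HoxB, HoxC and HoxD show these patterns in single libraries. Hoxc13, the last gene of its cluster and a regulator of hair and nail keratins, had 3.62 and 3.62 CPM in the day 6 libraries labelled shYy1, 1.31 and 1.16 in day 6 EPS shCtrl, 0.975 and 1.53 in day 6 ES oeYy1 and 3.66 and 4.07 in day 6 ES oeCtrl. Undifferentiated cells had 20.0 and 15.9 CPM in EPS shYy1, 4.47 and 1.94 in EPS shCtrl, 16.8 and 18.4 in ES oeYy1, 26.3 and 24.7 in ES oeCtrl, 8.56, 8.42 and 9.15 in EPS and 25.9, 19.3 and 17.5 in ES. ES oeCtrl lay above EPS shYy1 and ES oeYy1, which overlapped each other, and untransduced ES overlapped all 3 of these groups. Untransduced EPS lay below these and above every day 6 library, and EPS shCtrl lay within the day 6 range or just above it.

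Hoxb9, a gene of thoracic identity, had 15.3 and 14.9 CPM in the day 6 libraries labelled shYy1, 5.65 and 4.23 in day 6 EPS shCtrl, 7.11 and 8.98 in day 6 ES oeYy1 and 13.1 and 15.5 in day 6 ES oeCtrl. Undifferentiated cells had 6.44 and 5.12 CPM in EPS shYy1, 4.54 and 0.941 in EPS shCtrl, 8.31 and 8.03 in ES oeYy1, 6.26 and 7.32 in ES oeCtrl, 1.56, 1.68 and 2.87 in EPS and 18.6, 16.7 and 16.4 in ES. Untransduced ES was highest, above the overlapping day 6 groups labelled shYy1 and ES oeCtrl. Untransduced EPS and EPS shCtrl were lowest and overlapped.

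Hoxd9, a gene of limb and lumbar patterning, had 14.01 and 11.9 CPM in the day 6 libraries labelled shYy1, 19.2 and 18.7 in day 6 EPS shCtrl, 22.2 and 24.5 in day 6 ES oeYy1 and 14.5 and 15.3 in day 6 ES oeCtrl. Undifferentiated cells had 2.85 and 2.53 CPM in EPS shYy1, 0.567 and 0.412 in EPS shCtrl, 0.720 and 0.141 in ES oeYy1, 2.96 and 3.14 in ES oeCtrl, 0.161, 0.0481 and 0.0587 in EPS and 3.48, 2.95 and 2.45 in ES. All 8 day 6 libraries lay above all 14 undifferentiated ones, and among undifferentiated groups EPS shYy1, ES oeCtrl and ES stood above the other 3.

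**Figure D2:**
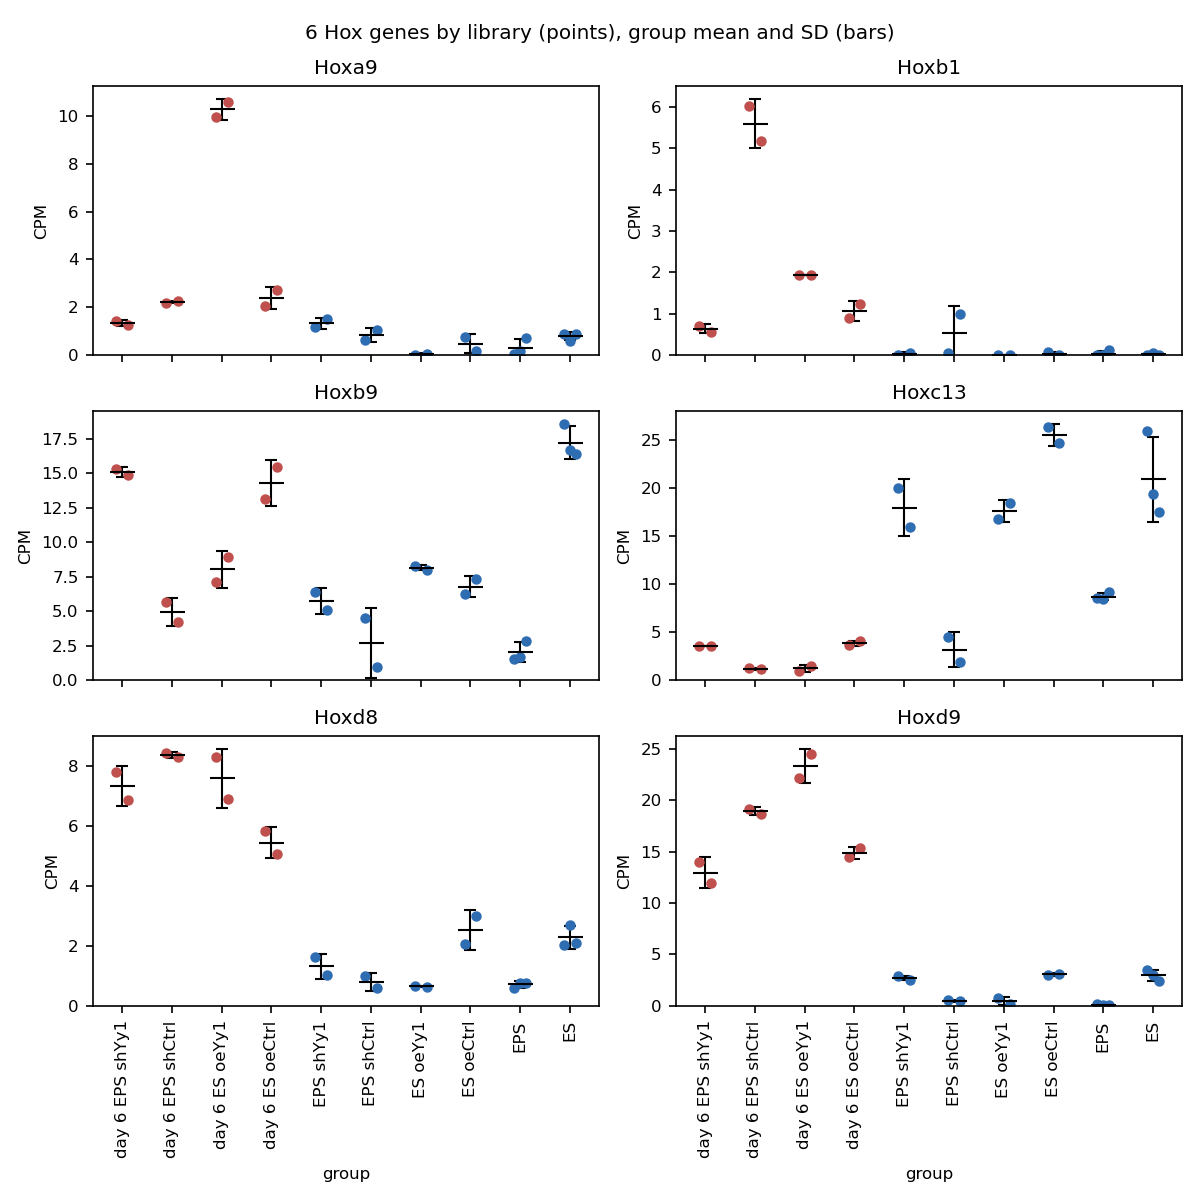
CPM of Hoxa9, Hoxb1, Hoxb9, Hoxc13, Hoxd8 and Hoxd9 (y axes) in 10 groups (x axes); points are libraries (red day 6, blue undifferentiated), bars are the group mean and SD (n = 3 for untransduced EPS and ES, n = 2 otherwise). Hoxa9 stands out in day 6 ES oeYy1, with 9.96 and 10.6 CPM, Hoxb1 in day 6 EPS shCtrl, with 6.02 and 5.18 CPM, and Hoxc13 is lower at day 6 than in most undifferentiated groups.

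Untransduced EPS cells had less Hox RNA than untransduced ES cells in every gene that was called. Of the 24 members tested, 17 were lower in EPS cells and 0 higher at an adjusted p under 0.05 (edgeR quasi-likelihood test, Benjamini-Hochberg over all genes tested), where 30.6% of all genes tested were called (13.8% higher and 16.9% lower). The other 15 members did not pass the filter on low counts. The fall was spread over 4 HoxA, 3 HoxB, 7 HoxC and 3 HoxD members. Summed over all 39 genes, EPS libraries had 20.6, 19.6 and 27.1 CPM and ES libraries 84.7, 76.5 and 73.3 CPM. The median log2 fold change of the members tested was -1.66, against -0.00 over all genes tested.
Hoxd9 was the most sharply different by its test (log2 fold change -4.88 ± 0.51 SE, adjusted p = 2.14e-06), followed by Hoxb9 (log2 fold change -3.03 ± 0.34 SE, adjusted p = 6.10e-06). Hoxc13 fell with a smaller fold (log2 fold change -1.20 ± 0.20 SE, adjusted p = 0.000233), and its 3 EPS libraries lay below all 3 ES libraries. Hoxc12, its neighbour in the cluster, had 0.431, 0.914 and 1.23 CPM in EPS and 3.42, 3.77 and 3.82 CPM in ES (log2 fold change -2.03 ± 0.34 SE, adjusted p = 0.000254).
Hoxc10, a gene of lumbar identity, had 0.323, 0.433 and 0.117 CPM in EPS and 1.92, 2.297 and 2.56 CPM in ES (log2 fold change -2.82 ± 0.38 SE, adjusted p = 3.61e-05). Hoxc4, at the other end of HoxC, had 0.538, 0.289 and 0.587 CPM in EPS and 4.02, 4.77 and 2.62 CPM in ES (log2 fold change -2.96 ± 0.41 SE, adjusted p = 4.49e-05). Neither gene's groups overlapped. Hoxa10, which patterns lumbar vertebrae and the uterus, had 0.0538, 0.0962 and 0.352 CPM in EPS and 1.44, 0.942 and 1.31 CPM in ES (log2 fold change -2.82 ± 0.56 SE, adjusted p = 0.000954). Hoxd13, which shapes the digits, had 0.861, 0.770 and 1.58 CPM in EPS and 4.08, 2.77 and 3.52 CPM in ES (log2 fold change -1.64 ± 0.33 SE, adjusted p = 0.00103).
In these 2 genes too, EPS replicate 3 was the highest EPS library and still lay below every ES library. Hoxa3, Hoxa4, Hoxa5, Hoxa9, Hoxc8 and Hoxd1 were among those tested and not called.

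Fibroblast markers moved with this difference. Summed CPM of 25 fibroblast markers was 1641, 1484 and 2932 in EPS libraries and 4100, 4392 and 7209 in ES libraries, and 14 of the 24 markers tested were lower in EPS and 0 higher, led by Col5a2 (log2 fold change -3.15 ± 0.34 SE, adjusted p = 3.92e-05), Fbn1 (log2 fold change -2.75 ± 0.35 SE, adjusted p = 0.000111) and Col5a1 (log2 fold change -2.95 ± 0.37 SE, adjusted p = 0.000202). S100a4 had no count in either group, and the other 24 markers had counts in both. In bulk RNA, fewer cells of a type and less RNA per cell cannot be told apart, and the markers' part in the Hox difference was not tested. Without replicate 3 of ES, which had the highest marker sum, 16 members were lower, and without replicate 3 of EPS 17 were. Fewer were called without ES replicate 1 (14) or 2 (15), and 13 without EPS replicate 1 or 2. DESeq2 called 14, and a fit of only the libraries compared called 15. Hoxa7, Hoxa11, Hoxa13 and Hoxc6 lost their calls without EPS replicate 1 or 2. On chromosome 6, which holds HoxA, the median log2 fold change of 728 tested genes was -0.29, against -0.00 over genes of other chromosomes, so a chromosome-wide difference moves with the HoxA values.

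With constructs in place, EPS shCtrl against ES oeCtrl had 12 lower and 5 higher of the 24 members tested, where 40.4% of all genes tested were called (19.7% higher and 20.7% lower). All 8 HoxC members tested were lower in EPS shCtrl, while 4 of the 9 HoxA members tested were higher and 0 lower. Hoxc13 (log2 fold change -3.03 ± 0.28 SE, adjusted p = 2.49e-07) and Hoxd9 (log2 fold change -2.65 ± 0.49 SE, adjusted p = 0.000364) were lower in EPS shCtrl. Hoxc12 had 0.504 and 0.0588 CPM in EPS shCtrl and 5.85 and 5.16 CPM in ES oeCtrl (log2 fold change -4.31 ± 0.50 SE, adjusted p = 4.07e-06). Hoxc10 had 0.378 and 0.235 CPM in EPS shCtrl and 3.71 and 4.05 CPM in ES oeCtrl (log2 fold change -3.66 ± 0.47 SE, adjusted p = 1.07e-05).
These libraries did not overlap for any of the 4 genes. Hoxc9 had 0.126 and 0.0588 CPM in EPS shCtrl, from 3 counts in all, and 2.06 and 1.76 CPM in ES oeCtrl, a ratio of 0.0478 (exact counting interval 0.00957 to 0.147). Hoxc11 had 0.252 and 0 CPM in EPS shCtrl and 1.38 and 1.63 CPM in ES oeCtrl (log2 fold change -3.56 ± 0.74 SE, adjusted p = 0.00108). Hoxc4 had 2.58 and 0.823 CPM in EPS shCtrl and 8.60 and 6.47 CPM in ES oeCtrl (log2 fold change -2.18 ± 0.42 SE, adjusted p = 0.000622).
Hoxa7, a gene of the trunk, was the exception among these, with 4.16 and 3.88 CPM in EPS shCtrl and 1.03 and 1.11 CPM in ES oeCtrl (log2 fold change 1.88 ± 0.36 SE, adjusted p = 0.000585). Chromosome 6 genes were lower here too, with a median log2 fold change of -0.44 against 0.01 on other chromosomes, the direction opposite to the called HoxA genes. Without ES oeCtrl replicate 2 the calls were 2 higher and 9 lower. The fibroblast marker sum was 1618 and 1367 CPM in EPS shCtrl and 2239 and 2692 CPM in ES oeCtrl, with 6 of 24 tested higher and 1 lower, and its part was not tested.

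Undifferentiated EPS shYy1 cells had more RNA than EPS shCtrl from 3 HoxC genes, Hoxb13 and Hoxd9, and less from Hoxa7. Of the 24 members tested 5 were higher and 2 lower in EPS shYy1, 29.2% of those tested, where 28.5% of all genes tested were called (15.1% higher and 13.3% lower). The share is near the background, so it is not a result about Hox genes. Hoxc13 rose (log2 fold change 2.44 ± 0.28 SE, adjusted p = 7.02e-06), and so did Hoxd9 (log2 fold change 2.38 ± 0.49 SE, adjusted p = 0.00165), and in both the shYy1 libraries lay above both shCtrl libraries. Hoxc12 had 1.97 and 2.53 CPM in EPS shYy1 and 0.504 and 0.0588 CPM in EPS shCtrl (log2 fold change 2.95 ± 0.54 SE, adjusted p = 0.000658). Hoxb13, the outlying gene of HoxB that acts in the tail and prostate, had 1.46 and 2.29 CPM in EPS shYy1 and 0.504 and 0.118 CPM in EPS shCtrl (log2 fold change 2.54 ± 0.62 SE, adjusted p = 0.00589).
Hoxb13 was no longer called with EPS shCtrl replicate 2 (adjusted p = 0.0754) or EPS shYy1 replicate 2 (adjusted p = 0.0649) left out. Hoxa7 fell, with 1.02 and 1.63 CPM in EPS shYy1 and 4.16 and 3.88 CPM in EPS shCtrl (log2 fold change -1.64 ± 0.35 SE, adjusted p = 0.00233). Hoxc9, also called, had too few reads in EPS shCtrl for a fitted fold: its 23 counts in EPS shYy1 against 3 in EPS shCtrl give a ratio of 8.32 (exact counting interval 2.52 to 43.3). The Hoxc9 call did not hold with EPS shCtrl replicate 2 or EPS shYy1 replicate 2 left out, nor with only the libraries compared in the fit. Without EPS shCtrl replicate 2, or without EPS shYy1 replicate 2, 4 members were called, and without EPS shCtrl replicate 1 11 were. Fibroblast markers were 2201 and 2096 CPM in EPS shYy1 and 1618 and 1367 CPM in EPS shCtrl, with 7 of 24 tested higher and 0 lower, and Twist2, Lum, S100a4 and Acta2 had no count in EPS shCtrl. Their part in the Hox values was not tested.

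Undifferentiated ES oeYy1 cells had less RNA than ES oeCtrl from 7 members and more from 2 of the 24 tested, 37.5% of those tested, where 32.0% of all genes tested were called (14.8% higher and 17.1% lower). The share is near the background, so the number of calls is not a result about Hox genes. Hoxd9 fell (log2 fold change -2.78 ± 0.50 SE, adjusted p = 0.000443), and its ES oeYy1 libraries lay below both ES oeCtrl libraries. Hoxc4 had 1.18 and 2.04 CPM in ES oeYy1 and 8.60 and 6.47 CPM in ES oeCtrl (log2 fold change -2.23 ± 0.43 SE, adjusted p = 0.000810). Hoxb13 had 0.262 and 0.0705 CPM in ES oeYy1 and 2.41 and 1.76 CPM in ES oeCtrl (log2 fold change -3.57 ± 0.70 SE, adjusted p = 0.000850).
Hoxd8, which lies beside Hoxd9, had 0.654 and 0.634 CPM in ES oeYy1 and 2.06 and 3.01 CPM in ES oeCtrl (log2 fold change -1.97 ± 0.42 SE, adjusted p = 0.00184). Hoxa7 was higher in ES oeYy1, with 2.42 and 2.68 CPM against 1.03 and 1.11 CPM in ES oeCtrl (log2 fold change 1.24 ± 0.37 SE, adjusted p = 0.0176), and Hoxc9 was lower, with 0.785 and 0.634 CPM in ES oeYy1 and 2.06 and 1.76 CPM in ES oeCtrl (log2 fold change -1.42 ± 0.48 SE, adjusted p = 0.0325). Groups did not overlap for these 6 genes, which were picked because they were called. Yet the calls for Hoxa7 and Hoxc9 were lost whichever single library was left out. With 1 library left out 5 members were called, whichever library it was.
Hoxc13 was not called (log2 fold change -0.54 ± 0.24 SE, adjusted p = 0.0940). The fibroblast marker sum was 1454 and 1565 CPM in ES oeYy1 and 2239 and 2692 CPM in ES oeCtrl, with 3 of 24 tested higher and 1 (Fn1) lower, and Twist2, Fap and S100a4 had no count in ES oeYy1. Their part was not tested.

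The construct control lines differed from the untransduced cells they are named after. These comparisons were added after values had been seen. EPS shCtrl had 11 members higher and 6 lower than untransduced EPS, of 24 tested, where 56.4% of all genes tested were called (28.9% higher and 27.4% lower). HoxA gave 6 higher and 0 lower, and HoxC 1 higher and 6 lower. Hoxa3, a gene of the throat and neck, had 2.33 and 2.94 CPM in EPS shCtrl and 0, 0.192 and 0.235 CPM in EPS (log2 fold change 4.02 ± 0.54 SE, adjusted p = 9.39e-06). Hoxa5, which acts in the lung and neck vertebrae, had 1.64 and 1.88 CPM in EPS shCtrl and 0.0538, 0.144 and 0.176 CPM in EPS (log2 fold change 3.62 ± 0.64 SE, adjusted p = 0.000149).
Hoxa7 had 4.16 and 3.88 CPM in EPS shCtrl and 0.592, 0.818 and 0.821 CPM in EPS (log2 fold change 2.29 ± 0.32 SE, adjusted p = 1.63e-05), and Hoxa10 had 2.14 and 1.35 CPM in EPS shCtrl and 0.0538, 0.0962 and 0.352 CPM in EPS (log2 fold change 3.24 ± 0.58 SE, adjusted p = 0.000149). Hoxa3, Hoxa5, Hoxa7 and Hoxa10 were each higher in both EPS shCtrl libraries than in all 3 EPS libraries. Hoxb4, a regulator of blood stem cells, had 1.32 and 0.941 CPM in EPS shCtrl and 0.161, 0.0481 and 0.293 CPM in EPS (log2 fold change 2.62 ± 0.67 SE, adjusted p = 0.00315).
Hoxc4 had 2.58 and 0.823 CPM in EPS shCtrl and 0.538, 0.289 and 0.587 CPM in EPS (log2 fold change 1.70 ± 0.48 SE, adjusted p = 0.00651), and with EPS shCtrl replicate 1 left out it was no longer called (adjusted p = 0.313). Hoxc13 went the other way and was lower in EPS shCtrl (log2 fold change -1.59 ± 0.26 SE, adjusted p = 7.25e-05). Hoxc8 had 0 counts in EPS shCtrl and 51 in EPS, at least 5.16-fold lower with 3 counts per library as the limit.
Fibroblast markers differed as well, with 1618 and 1367 CPM in EPS shCtrl and 1641, 1484 and 2932 CPM in EPS and 21 of 24 tested lower and 0 higher, and their part in the Hox values was not tested.

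ES oeCtrl had 1 member higher and 4 lower than untransduced ES, of 24 tested. This was 20.8% of those tested, where 50.6% of all genes tested were called (25.5% higher and 25.1% lower). The share called was below that over all genes, so the number of calls is not a result about Hox genes. Hoxa11, which patterns the forearm, had 0 counts in ES oeCtrl and 0.959, 1.00 and 1.19 CPM in ES, at least 5.22-fold lower with 3 counts per library as the limit. Hoxb9 was lower in ES oeCtrl (log2 fold change -1.40 ± 0.35 SE, adjusted p = 0.00343). Hoxc8, a gene of the thorax, had 0.206 and 0.458 CPM in ES oeCtrl and 1.32, 1.94 and 1.49 CPM in ES (log2 fold change -2.27 ± 0.60 SE, adjusted p = 0.00467).
These 3 genes did not overlap between groups. Hoxc6 had 0.344 and 0.458 CPM in ES oeCtrl and 1.14, 1.18 and 1.49 CPM in ES (log2 fold change -1.69 ± 0.59 SE, adjusted p = 0.0243), and Hoxc4 was higher, with 8.60 and 6.47 CPM in ES oeCtrl and 4.02, 4.77 and 2.62 CPM in ES (log2 fold change 0.92 ± 0.35 SE, adjusted p = 0.0368). Hoxc4 and Hoxc6 groups did not overlap either. Without ES oeCtrl replicate 1 the calls for Hoxc8 (adjusted p = 0.0677), Hoxc6 (0.148) and Hoxc4 (0.227) were lost, and Hoxc6 and Hoxc4 also lost theirs without ES oeCtrl replicate 2 (0.0850 for Hoxc6, 0.0640 for Hoxc4) or ES replicate 3 (0.0531 for Hoxc6, 0.117 for Hoxc4), and Hoxc4 without ES replicate 1 (0.0677). With the replicate number as a block the adjusted p was 0.0507 for Hoxc6 and 0.0547 for Hoxc4. Without ES replicate 3 or ES oeCtrl replicate 2, 3 members were called, and without ES oeCtrl replicate 1, 2 were. Of 24 fibroblast markers tested 1 was higher and 23 were lower in ES oeCtrl, with summed CPM of 2239 and 2692 in ES oeCtrl and 4100, 4392 and 7209 in ES, and their part in the Hox values was not tested.

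A noncoding neighbour marked the hairpin lines. Halr1, a noncoding RNA transcribed beside HoxA, was singled out after its values were seen. It had 16.9 and 14.4 CPM in EPS shYy1 and 55.6 and 50.0 CPM in EPS shCtrl (log2 fold change -1.82 ± 0.27 SE, adjusted p = 0.000110). Untransduced EPS had 0.269, 0.144 and 0.469 CPM and no library of the other 7 groups exceeded 0.688 CPM. Cdx1, a caudal-type homeobox regulator of Hox genes, had 54.6 and 68.9 CPM in EPS shYy1, 97.2 and 158 CPM in EPS shCtrl and 1.02, 1.25 and 1.41 CPM in untransduced EPS. Both genes were lower in EPS shYy1 than in EPS shCtrl (for Cdx1, log2 fold change -1.12 ± 0.26 SE, adjusted p = 0.00474), and both hairpin groups lay above untransduced EPS.

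The miR-196 and miR-10 genes lie within the Hox clusters and their mature forms act on Hox messengers. Their mature sequences are shown with the seed, bases 2 to 8, in capitals, since miR-196a and miR-196b share 1 seed and miR-10a and miR-10b another.
mmu-miR-196a-5p: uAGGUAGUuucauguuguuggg
mmu-miR-196b-5p: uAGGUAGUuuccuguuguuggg
mmu-miR-10a-5p: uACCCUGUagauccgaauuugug
mmu-miR-10b-5p: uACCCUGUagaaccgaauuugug
Libraries of messenger RNA do not measure mature microRNAs, and a row for a microRNA gene counts reads of longer transcripts that cover it. The Mir196a-1 row (chr11:96265164-96265265, ending 6.06 kb before Hoxb9) had 364 counts over the 22 libraries and was singled out after its values were seen. It had 1, 1 and 4 counts in untransduced EPS and 19, 23 and 27 in untransduced ES. Mir10a and Mir10b had 2 counts each in all, and Mir196a-2, Mir196b and Mir615 had 0.

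After 6 days in F4H medium a different set of Hox genes carried most of the reads. The 4 construct lines were each compared with their own undifferentiated cells, and about as large a share of Hox members as of all genes was called. In EPS shYy1, 17 members were higher and 6 lower of 34 tested, where 75.4% of all genes tested were called (37.9% higher and 37.4% lower). For EPS shCtrl the calls were 18 higher and 6 lower, where 74.1% of all genes tested were called (37.5% higher and 36.6% lower). For ES oeYy1 they were 23 higher and 3 lower, where 72.7% of all genes tested were called (35.7% higher and 36.9% lower). For ES oeCtrl they were 18 higher and 7 lower, where 73.0% of all genes tested were called (37.1% higher and 35.9% lower).
Within HoxD, 5 members were higher and 1, Hoxd13, lower in EPS shYy1, EPS shCtrl and ES oeCtrl, and 6 were higher and 0 lower in ES oeYy1. Fibroblast marker sums were 6250 to 8341 CPM in day 6 libraries and 1367 to 7209 CPM in undifferentiated ones. Genes on this list are also used by mesenchymal cells that arise in differentiation, and their part in the Hox values was not tested.

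Hoxd9 rose in EPS shYy1 (log2 fold change 2.33 ± 0.21 SE, adjusted p = 2.35e-09), EPS shCtrl (log2 fold change 5.12 ± 0.27 SE, adjusted p = 3.61e-13), ES oeYy1 (log2 fold change 5.64 ± 0.28 SE, adjusted p = 1.16e-13) and ES oeCtrl (log2 fold change 2.29 ± 0.21 SE, adjusted p = 2.00e-09). Its neighbour Hoxd8 had 7.80 and 6.87 CPM at day 6 and 1.61 and 1.02 CPM before in EPS shYy1 (log2 fold change 2.55 ± 0.27 SE, adjusted p = 2.99e-08), and 8.42 and 8.30 CPM at day 6 and 1.01 and 0.588 CPM before in EPS shCtrl (log2 fold change 3.25 ± 0.29 SE, adjusted p = 1.70e-09). In ES oeYy1, Hoxd8 had 8.29 and 6.89 CPM at day 6 and 0.654 and 0.634 CPM before (log2 fold change 3.47 ± 0.31 SE, adjusted p = 2.22e-09). Every day 6 library exceeded every undifferentiated library for both genes.
Hoxd10, which patterns the hindlimb and lumbar cord, had 1.68 and 2.00 CPM at day 6 in EPS shYy1, against 1 count before, a ratio of 55.2 (exact counting interval 9.57 to 2215). In EPS shCtrl it had 1.47 and 1.76 CPM at day 6 and 0 counts before, at least 8.83-fold higher. In ES oeYy1 Hoxd10 had 6.06 and 5.85 CPM at day 6 and 0.196 and 0.0705 CPM before (log2 fold change 5.31 ± 0.53 SE, adjusted p = 1.90e-08).
Hoxd10 thus stood lower before than at day 6 in each of these lines. Hoxd1, at the other end of HoxD, had 5.36 and 6.68 CPM at day 6 and 0.654 and 0.282 CPM before in ES oeYy1 (log2 fold change 3.58 ± 0.44 SE, adjusted p = 2.20e-07). In ES oeCtrl it had 1.86 and 2.89 CPM at day 6 and 1 count before, a ratio of 69.5 (exact counting interval 12.2 to 2779).

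In HoxC, Hoxc6 and Hoxc8 rose in all 4 lines, Hoxc12 and Hoxc13 fell in all 4, and no other HoxC gene was called in 1 direction in all 4. Hoxc8 had 3.11 and 3.25 CPM at day 6 and 0.146 and 0.181 CPM before in EPS shYy1 (log2 fold change 4.26 ± 0.45 SE, adjusted p = 3.97e-08). In EPS shCtrl it had 6.54 and 6.49 CPM at day 6 and 0 counts before, at least 35.7-fold higher. In ES oeCtrl Hoxc8 had 2.16 and 2.89 CPM at day 6 and 0.206 and 0.458 CPM before (log2 fold change 2.88 ± 0.41 SE, adjusted p = 2.40e-06).
No day 6 library overlapped the undifferentiated libraries of its line. Hoxc6, expressed in the thorax, had 1.68 and 1.56 CPM at day 6 and 0.146 and 0.181 CPM before in EPS shYy1 (log2 fold change 3.29 ± 0.54 SE, adjusted p = 1.40e-05). In EPS shCtrl Hoxc6 had 2.93 and 2.67 CPM at day 6 and 1 count before, a ratio of 91.9 (exact counting interval 16.1 to 3664). Hoxc9 had 4.34 and 3.12 CPM at day 6 in EPS shCtrl and 3 counts before, a ratio of 40.8 (exact counting interval 13.7 to 199.9).
Hoxc6 and Hoxc9 did not overlap between the stages in these lines, while Hoxc9 was not called in ES oeCtrl (log2 fold change -0.49 ± 0.40 SE, adjusted p = 0.277). Hoxc13 fell in EPS shYy1 (log2 fold change -2.25 ± 0.22 SE, adjusted p = 8.79e-09), ES oeYy1 (log2 fold change -3.87 ± 0.27 SE, adjusted p = 3.94e-11) and ES oeCtrl (log2 fold change -2.72 ± 0.22 SE, adjusted p = 2.83e-10). Hoxc12 had 0.102 and 0.125 CPM at day 6 and 1.97 and 2.53 CPM before in EPS shYy1 (log2 fold change -4.19 ± 0.67 SE, adjusted p = 1.26e-05), and 0 and 0.236 CPM at day 6 and 5.85 and 5.16 CPM before in ES oeCtrl (log2 fold change -5.56 ± 0.59 SE, adjusted p = 6.93e-08). In ES oeYy1 Hoxc12 had 0 counts at day 6 and 197 before, at least 31.9-fold lower.
The stages were fully apart for Hoxc12 in these 3 lines. In EPS shCtrl it was near zero at both stages, with 0 counts at day 6 and 9 before, at least 1.83-fold lower. That call was lost without undifferentiated EPS shCtrl replicate 1 and with only the libraries compared in the fit. In ES oeCtrl Hoxc4, Hoxc10 and Hoxc11 were also called lower. Hoxc4 had 1.00 and 0.943 CPM at day 6 and 8.60 and 6.47 CPM before (log2 fold change -2.93 ± 0.38 SE, adjusted p = 4.73e-07), and Hoxc10 had 0.602 and 0.648 CPM at day 6 and 3.71 and 4.05 CPM before (log2 fold change -2.62 ± 0.35 SE, adjusted p = 7.77e-07). By the same test Hoxc4 was also called lower in EPS shYy1, and Hoxc10 was also called lower in ES oeYy1 and higher in EPS shCtrl.

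Of HoxA and HoxB, Hoxa3 had 3.97 and 4.18 CPM at day 6 and 0.262 and 0.352 CPM before in ES oeYy1 (log2 fold change 3.64 ± 0.41 SE, adjusted p = 6.05e-08), and 3.76 and 2.71 CPM at day 6 and 0.413 and 0.523 CPM before in ES oeCtrl (log2 fold change 2.78 ± 0.38 SE, adjusted p = 9.61e-07). Hoxb3, a hindbrain and neck gene, had 4.03 and 4.48 CPM at day 6 and 0.126 and 0.176 CPM before in EPS shCtrl (log2 fold change 4.60 ± 0.61 SE, adjusted p = 1.30e-06). Hoxb4, which lies inside the Hoxb3 span, had 4.08 and 4.37 CPM at day 6 and 1.02 and 0.963 CPM before in EPS shYy1 (log2 fold change 2.13 ± 0.39 SE, adjusted p = 4.09e-05), and 6.28 and 7.75 CPM at day 6 and 1.32 and 0.941 CPM before in EPS shCtrl (log2 fold change 2.49 ± 0.36 SE, adjusted p = 2.16e-06).
These genes were higher in every day 6 library of those lines. Hoxa9, a gene of thoracic and lumbar identity and of blood progenitors, had 9.96 and 10.6 CPM at day 6 in ES oeYy1 and 1 count before, a ratio of 302.7 (exact counting interval 53.9 to 12000).

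At day 6 the libraries labelled shYy1 had less RNA than EPS shCtrl from Hoxb1 to Hoxb4, Hoxb6 and Hoxb8, and more from Hoxb9 and Hoxb13; Hoxb7 was not called and Hoxb5 not tested. Of 34 members tested 3 were higher and 11 lower, 41.2% of those tested, where 61.3% of all genes tested were called (30.9% higher and 30.4% lower). The share called was below that over all genes, so the number of calls is not a result about Hox genes. As given above, lower Yy1 mRNA was not detected in these libraries, so the directions belong to the labels. HoxB gave 6 lower and 2 higher of 9 tested, HoxA 1 lower, HoxC 2 lower and 1 higher, and HoxD 2 lower.
Hoxb1, the hindbrain gene whose window is printed above, had 0.713 and 0.562 CPM in the libraries labelled shYy1 and 6.02 and 5.18 CPM in EPS shCtrl (log2 fold change -2.97 ± 0.30 SE, adjusted p = 6.48e-13). Hoxb2, also a hindbrain gene, had 0.306 and 0.562 CPM in the libraries labelled shYy1 and 3.51 and 2.46 CPM in EPS shCtrl (log2 fold change -2.66 ± 0.44 SE, adjusted p = 6.71e-07). Hoxb3 had 1.12 and 0.250 CPM in the libraries labelled shYy1 and 4.03 and 4.48 CPM in EPS shCtrl (log2 fold change -2.42 ± 0.35 SE, adjusted p = 3.27e-08).
In all 3 genes the groups stood well apart. Hoxb8, a gene of the trunk, had 0.815 and 0.812 CPM in the libraries labelled shYy1 and 2.56 and 2.36 CPM in EPS shCtrl (log2 fold change -1.46 ± 0.35 SE, adjusted p = 0.000277). Hoxb9 and Hoxc13 were higher in the libraries labelled shYy1 (log2 fold change 1.75 ± 0.15 SE, adjusted p = 4.63e-16 for Hoxb9, log2 fold change 1.68 ± 0.28 SE, adjusted p = 3.94e-07 for Hoxc13). Hoxc8 (log2 fold change -0.90 ± 0.20 SE, adjusted p = 0.000129) and Hoxd9 (log2 fold change -0.40 ± 0.11 SE, adjusted p = 0.00101) were lower.
For each of these 5 genes, picked for a small adjusted p, the libraries of the groups did not overlap, which follows largely from that choice. Leaving out 1 library gave 11 to 13 called members, against 14.

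Day 6 ES oeYy1 had more RNA than ES oeCtrl from genes of all 4 clusters. Of 34 members tested 22 were higher and 3 lower, 73.5% of those tested, where 41.9% of all genes tested were called (20.3% higher and 21.6% lower). HoxA gave 7 higher and 0 lower, HoxD 7 higher and 0 lower, HoxB 5 higher and 2 lower, and HoxC 3 higher and 1 lower. The median log2 fold change of the members tested was 1.27, against 0.00 over all genes tested.
Hoxa9 had 9.96 and 10.6 CPM in ES oeYy1 and 2.06 and 2.71 CPM in ES oeCtrl (log2 fold change 2.07 ± 0.21 SE, adjusted p = 1.83e-12). Hoxa13, which acts in the hindgut and digits, had 4.11 and 3.83 CPM in ES oeYy1 and 1.00 and 0.766 CPM in ES oeCtrl (log2 fold change 2.10 ± 0.32 SE, adjusted p = 2.42e-07). Hoxa7 had 4.32 and 5.22 CPM in ES oeYy1 and 1.20 and 1.94 CPM in ES oeCtrl (log2 fold change 1.57 ± 0.28 SE, adjusted p = 6.10e-06).
The 2 ES oeYy1 libraries exceeded every other day 6 library in these HoxA genes. Hoxd11, a gene of the lumbar region and forearm, had 4.11 and 4.18 CPM in ES oeYy1 and 0.401 and 0.530 CPM in ES oeCtrl (log2 fold change 3.11 ± 0.39 SE, adjusted p = 1.97e-09). Hoxd10, which overlaps it, had 6.06 and 5.85 CPM in ES oeYy1 and 1.86 and 1.00 CPM in ES oeCtrl (log2 fold change 1.99 ± 0.27 SE, adjusted p = 8.51e-09), and Hoxd9 was higher too (log2 fold change 0.61 ± 0.11 SE, adjusted p = 3.76e-06).
Hoxb9 (log2 fold change -0.87 ± 0.14 SE, adjusted p = 1.04e-06) and Hoxc13 (log2 fold change -1.66 ± 0.29 SE, adjusted p = 3.88e-06) were lower in ES oeYy1, together with Hoxb4. Groups did not overlap for these 8 genes, which follows largely from picking them for the smallest adjusted p. DESeq2 called 13 members (11 higher and 2 lower), and without ES oeYy1 replicate 2 the test called 16.

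Of the day 6 controls of the 2 cell types, EPS shCtrl against ES oeCtrl gave 14 higher and 6 lower of 34 tested, 58.8% of those tested, where 64.1% of all genes tested were called (31.6% higher and 32.4% lower). The share called was below that over all genes, so it is not a result about Hox genes. HoxB had 7 higher and 1 lower, HoxC 5 higher and 1 lower, HoxD 2 higher and 1 lower, and HoxA 0 higher and 3 lower. Hoxb1 had 6.02 and 5.18 CPM in EPS shCtrl and 0.903 and 1.24 CPM in ES oeCtrl (log2 fold change 2.25 ± 0.27 SE, adjusted p = 1.53e-10), and Hoxb2 had 3.51 and 2.46 CPM in EPS shCtrl and 0 and 0.295 CPM in ES oeCtrl (log2 fold change 4.24 ± 0.55 SE, adjusted p = 1.41e-09). Hoxb3 had 4.03 and 4.48 CPM in EPS shCtrl and 0.251 and 0.236 CPM in ES oeCtrl (log2 fold change 3.94 ± 0.43 SE, adjusted p = 9.98e-12).
All 3 were higher in both EPS shCtrl libraries. Hoxb4 had 6.28 and 7.75 CPM in EPS shCtrl and 1.86 and 2.83 CPM in ES oeCtrl (log2 fold change 1.45 ± 0.22 SE, adjusted p = 4.29e-08), and Hoxb6, a gene of the trunk, had 2.04 and 1.91 CPM in EPS shCtrl and 0.251 and 0.295 CPM in ES oeCtrl (log2 fold change 2.69 ± 0.48 SE, adjusted p = 2.37e-06). Hoxc8 was higher (log2 fold change 1.23 ± 0.21 SE, adjusted p = 1.03e-06), and Hoxb9 (log2 fold change -1.68 ± 0.15 SE, adjusted p = 2.15e-15) and Hoxc13 (log2 fold change -1.79 ± 0.27 SE, adjusted p = 6.52e-08) were lower in EPS shCtrl.
None of these 8 genes, picked for the smallest adjusted p, overlapped between the groups, which follows largely from that choice. The median log2 fold change on chromosome 6, where the 3 lower HoxA genes lie, was -0.34, against 0.02 on other chromosomes. DESeq2 called 12 members, and without EPS shCtrl replicate 1 the test called 13. These comparisons share control libraries with those above, so their values are given side by side and not set against each other.

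The effect of a construct was also tested for a difference between stages. For shYy1 against shCtrl, 1 member was higher at day 6 relative to undifferentiated cells and 7 were lower, of 34 tested. This was 23.5% of those tested, where 41.5% of all genes tested were called (21.4% higher and 20.1% lower). The share called was below that over all genes, so the number of calls is not a result about Hox genes. Hoxd9 showed a difference between stages most clearly, being higher in EPS shYy1 than in EPS shCtrl before and lower at day 6 (log2 fold change -2.79 ± 0.40 SE, adjusted p = 1.00e-05). For oeYy1 against oeCtrl, 12 were higher and 1 lower, 38.2% of those tested, where 37.6% of all genes tested were called (17.7% higher and 19.9% lower). This share is near the background too, so the number of calls is not a result about Hox genes. Hoxd9 again led, being lower in ES oeYy1 than in ES oeCtrl before and higher at day 6 (log2 fold change 3.35 ± 0.41 SE, adjusted p = 1.70e-06). Hoxc4 did the same (log2 fold change 3.47 ± 0.56 SE, adjusted p = 4.97e-05), with 1.95 and 2.92 CPM in ES oeYy1 and 1.00 and 0.943 CPM in ES oeCtrl at day 6. Hoxd8, with 8.29 and 6.89 CPM in day 6 ES oeYy1 and 5.82 and 5.07 CPM in day 6 ES oeCtrl, was the third (log2 fold change 2.37 ± 0.42 SE, adjusted p = 0.000154). For each of these 3 genes the order of the oeYy1 and oeCtrl libraries at day 6 was the opposite of that before.

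Genes known to work with or upstream of the Hox clusters are set against the background of 61.3% of all genes tested called at day 6 between the libraries labelled shYy1 and EPS shCtrl, and 41.9% between ES oeYy1 and ES oeCtrl. For upstream regulators and TALE cofactors the shares called in the libraries labelled shYy1 were near it, so these counts are not a result about those genes. Of 18 upstream regulators (CDX, WNT, FGF and retinoic acid genes among them) 4 were higher and 7 lower in the libraries labelled shYy1 than in EPS shCtrl, led by Fgf8 (log2 fold change -2.20 ± 0.06 SE, adjusted p = 5.12e-39) and Cyp26a1 (log2 fold change -1.98 ± 0.05 SE, adjusted p = 1.02e-37). Cyp26a1 degrades retinoic acid, and Fgf8 is a signal of the caudal end of the embryo. In ES oeYy1 against ES oeCtrl, 9 were higher and 1 lower, led by Fgf8 (log2 fold change 1.46 ± 0.06 SE, adjusted p = 1.40e-28), Wnt5a (log2 fold change 1.33 ± 0.06 SE, adjusted p = 5.06e-27) and Cyp26a1 (log2 fold change 1.21 ± 0.06 SE, adjusted p = 4.04e-25). Of 10 mesendoderm markers 1 was higher and 9 lower in the libraries labelled shYy1, and 9 were higher and 0 lower in ES oeYy1.
These markers differ between the groups beside the Hox genes, and their part in the Hox values was not tested. Of 9 TALE cofactors, the PBX, MEIS and PREP partners of HOX proteins, 0 were higher and 5 lower in the libraries labelled shYy1, and 5 were higher and 1 lower in ES oeYy1. Evx1, which lies beyond Hoxa13 at the end of HoxA, had 122 and 117 CPM in ES oeYy1 and 37.9 and 37.9 CPM in ES oeCtrl (log2 fold change 1.62 ± 0.07 SE, adjusted p = 1.40e-28). Of 10 homeobox relatives that include Evx1, 3 of 4 tested were lower in the libraries labelled shYy1 and 3 of 4 were higher in ES oeYy1.

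Calls among markers of other cell types at day 6 are read against the same background of 61.3% of all genes for shYy1 and 41.9% for oeYy1, which several lists were near, and their part in the Hox values was not tested. In the libraries labelled shYy1 against EPS shCtrl, 9 of 23 fibroblast markers tested were higher and 9 lower, 5 of 10 pluripotency markers were higher and 2 lower, 5 of 12 primitive endoderm markers were higher and 6 lower, 7 of 11 trophoblast markers were higher and 3 lower, and 3 of 8 neuroectoderm markers were higher and 2 lower. In ES oeYy1 against ES oeCtrl, 7 of 23 fibroblast markers were higher and 9 lower, 1 of 10 pluripotency markers was higher and 7 lower, 3 of 12 primitive endoderm markers were higher and 9 lower, 4 of 11 trophoblast markers were higher and 6 lower, and 1 of 8 neuroectoderm markers was higher and 3 lower. Of the YY1 family, Zfp42 was higher in the libraries labelled shYy1 (log2 fold change 0.74 ± 0.18 SE, adjusted p = 0.000237) and lower in ES oeYy1 (log2 fold change -1.66 ± 0.14 SE, adjusted p = 1.92e-15). Yy1 itself was not called in the libraries labelled shYy1 and was higher in ES oeYy1.

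The chromatin complexes gave mixed results, with the same day 6 background of 61.3% for shYy1 and 41.9% for oeYy1. Of 13 trithorax and MLL genes 5 were higher and 3 lower in the day 6 libraries labelled shYy1, and 8 were higher and 0 lower in day 6 ES oeYy1, led by Kdm6b (log2 fold change 0.63 ± 0.05 SE, adjusted p = 3.28e-16), an eraser of the Polycomb mark. Of 11 PRC2 genes 2 were higher and 5 lower in the libraries labelled shYy1 and 5 were higher and 1 lower in ES oeYy1, and of 19 PRC1 genes 6 were higher and 6 lower, and 6 higher and 4 lower. Between undifferentiated groups 28.5% of all genes tested were called for EPS shYy1 against EPS shCtrl, and 32.0% for ES oeYy1 against ES oeCtrl. Counts near these shares are not a result about the complexes. In undifferentiated EPS shYy1 against EPS shCtrl, 2 trithorax genes were higher and 2 lower, 2 PRC2 genes were higher and 2 lower, and 5 PRC1 genes were higher and 4 lower. In undifferentiated ES oeYy1 against ES oeCtrl, 3 trithorax genes were higher and 1 lower, 0 PRC2 genes were higher and 3 lower, and 2 PRC1 genes were higher and 1 lower.

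Genes flanking the clusters did not all follow their cluster. Of all genes tested, 30.6% were called for untransduced EPS against ES, 28.5% for undifferentiated shYy1 and 32.0% for undifferentiated oeYy1. At day 6 the shares were 61.3% for shYy1 and 41.9% for oeYy1. Counts near these shares are not a result about the flanking genes. Beside HoxB, 1 of 7 genes tested was higher and 4 were lower in untransduced EPS than in ES, led by Calcoco2 (log2 fold change -4.18 ± 0.30 SE, adjusted p = 3.71e-07). In EPS shYy1 against EPS shCtrl, Copz2, Calcoco2 and Ttll6 were higher, led by Copz2 (log2 fold change 3.61 ± 0.33 SE, adjusted p = 7.81e-07), and in ES oeYy1 against ES oeCtrl 2 were higher and 3 lower, led by Copz2 (log2 fold change -3.92 ± 0.26 SE, adjusted p = 2.78e-08). Of 7 HoxA neighbours tested 1 was higher and 1 lower in EPS shYy1 and 0 higher and 3 lower in ES oeYy1, and of 6 HoxD neighbours 0 were higher and 1 lower in EPS shYy1 and 2 higher and 2 lower in ES oeYy1. Of 6 HoxC neighbours tested at day 6, 0 were higher and 4 lower in the libraries labelled shYy1, and 3 higher and 0 lower in ES oeYy1. At day 6 Haglr, an antisense RNA of HoxD, was higher in ES oeYy1 than in ES oeCtrl (log2 fold change 2.37 ± 0.36 SE, adjusted p = 2.47e-07), and Hoxb3os, antisense to Hoxb3, was lower in the libraries labelled shYy1 than in EPS shCtrl (log2 fold change -3.15 ± 0.44 SE, adjusted p = 8.79e-09).
Hoxb3os overlaps Hoxb2 and Hoxb3. Without strand in the counting, reads from such an overlap cannot be told apart.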

How the data were processed

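The authors deposited 1 table per RNA-seq library with whole-number read counts per gene symbol (counts, not normalized). RNA was extracted with TRIzol per the labels' protocols. The submitters' processing notes name CASAVA, Bowtie2 2.3.2 and the builds mm10 and GRCm38.p6, with no role given for RNA-seq; the counting tool and its strand setting are not given in the sources used here. Rows that name no gene were left out (no feature 5.61% to 8.62%, ambiguous 3.70% to 5.32%, not unique 5.45% to 6.66% of all counts per library). The other 41 samples of the series were not used here.

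CPM is a gene's count over the library's sum of gene rows, scaled to the same total in each library. Tests used edgeR 4.0.16 (R 4.3.3, limma 3.58.1) robust quasi-likelihood F-tests with TMM factors, filterByExpr and Benjamini-Hochberg adjustment over all genes tested, called at an adjusted p under 0.05. In all 3 models were fitted, over 14 undifferentiated, 8 day 6 and 16 construct libraries of both stages. Simulated data with set changes were run through the same fits. They were drawn from the kind of model that the tests assume, over genes of all levels. They therefore do not show how well changes of genes near 1 CPM are found. RLE factors, no filter, DESeq2 1.42.0, a replicate block, only the libraries compared, and each library left out were tried. Day 6 controls are grouped by sample titles; their deposited table names carry no construct.

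The Hox genes and 17 further gene lists (192 of 197 genes in the tables) were chosen with earlier results of these data known. Genes named are the called members with a mean of at least 1 CPM in a compared group, the 8 of smallest adjusted p at most, the gene with highest CPM in each cluster, up to 3 called genes of each other list, and Yy1; some genes that meet this rule are not reported here. In untransduced EPS against ES, deviations of same-numbered libraries correlated at 0.250, 0.338 and 0.549, so the numbers may pair these libraries. The correlation was 0.131 in EPS shYy1 against EPS shCtrl and 0.102 in EPS shCtrl against ES oeCtrl, and lower in the other comparisons. The reported tests were fitted by group only, without pairing, and the replicate block was tried as an alternative. Promoter and microRNA sequences are from RefSeq, GRCm38.p6. Replicates were checked not to be copies of a library (chi-square per degree of freedom 1.89 to 34.6).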

Additional observations from a re-analysis of the deposited data

Results flagged for a closer look

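The results listed here are differences in a construct's effect between stages, tested directly (edgeR quasi-likelihood test over 16 libraries, log2 difference of day 6 effect minus undifferentiated effect). For shYy1 against shCtrl, the values were -2.79 for Hoxd9 (adjusted p = 1.00e-05), -3.43 for Hoxc9 (0.00251), -1.91 for Hoxc4 (0.00566), -5.37 for Hoxc8 (0.00661), -2.11 for Hoxa13 (0.0132), -3.77 for Hoxd4 (0.0139) and -1.59 for Hoxc10 (0.0496). Hoxc10 was no longer called with no filter on low counts, a replicate block, DESeq2, only the libraries compared, or any of 6 single libraries left out (EPS shCtrl replicates 1 and 2 and EPS shYy1 replicate 2, undifferentiated, and day 6 EPS shCtrl replicates 1 and 2 and EPS shYy1 replicate 2), with adjusted p of 0.0515 to 0.320. Hoxa13 was no longer called without undifferentiated EPS shCtrl replicate 2 (adjusted p = 0.0654) or EPS shYy1 replicate 1 (0.112), and Hoxd4 without undifferentiated EPS shYy1 replicate 1 (0.147) or day 6 EPS shYy1 replicate 2 (0.0513). Hoxc8 had 0 counts in undifferentiated EPS shCtrl, and Hoxc9 and Hoxd4 had 3, so their fitted sizes depend on the prior count of the fit. Lower Yy1 mRNA was not detected in the day 6 libraries labelled shYy1.

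For oeYy1 against oeCtrl, the values were 3.35 for Hoxd9 (adjusted p = 1.70e-06), 3.47 for Hoxc4 (4.97e-05), 2.37 for Hoxd8 (0.000154), 5.57 for Hoxa9 (0.000192), 3.30 for Hoxa13 (0.000612), 2.94 for Hoxa10 (0.00619), 1.63 for Hoxc10 (0.00918) and -1.15 for Hoxc13 (0.0200). Hoxa9 had 1 count in undifferentiated ES oeYy1. Hoxc13 was lower in ES oeYy1 at day 6 and was not called in undifferentiated cells; the call of its difference between stages was lost without ES oeYy1 replicate 2 (adjusted p = 0.0652), without day 6 ES oeCtrl replicate 2 (0.0625) or without day 6 ES oeYy1 replicate 1 (0.166).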

How the results depend on the processing

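Of 1097 refits of the 112 named gene and comparison pairs, 1051 kept their direction and side of the threshold, 46 were no longer past it (35 of them without 1 library) and 0 reversed. These pairs were picked for the smallest adjusted p and refitted on mostly the same libraries, so a high share was likely beforehand. The share does not describe all called members, whose counts moved more. Counts of called members left the range of 1.5 times the reported count as follows, and the cause was not tested unless fewer genes or libraries were fitted. EPS shYy1 against EPS shCtrl gave 7, 11 with no filter and 4 to 11 without 1 library. ES oeYy1 against ES oeCtrl gave 9, 5 with DESeq2 and 5 without any 1 library. EPS shCtrl against ES oeCtrl gave 17, and 11 to 17 without 1 library. EPS shCtrl against EPS gave 17, and 11 with only the libraries compared. ES oeCtrl against ES gave 5, 3 with a replicate block, 3 with DESeq2, and 2 to 5 without 1 library. Day 6 ES oeYy1 against ES oeCtrl gave 25, 13 with DESeq2 and 16 to 19 without 1 library. Day 6 EPS shCtrl against ES oeCtrl gave 20, 12 with DESeq2 and 13 to 18 without 1 library. The oeYy1 change between stages gave 13, and 8 to 11 without 1 library. At a limit of 0.5 CPM, 12 genes were near zero in day 6 libraries labelled shYy1 (22 at 1 CPM) and 7 in day 6 ES oeYy1 (15). With TMM-adjusted CPM, sums moved by more than 1 SD for summed CPM of HoxB, EPS shYy1 (8.75), day 6 EPS shCtrl HoxA (19.9), HoxB (27.9), HoxC (18.5) and HoxD (31.7), and day 6 ES oeYy1 HoxD (48.9). The replicate block, tried in every comparison, also ended the call of the change between stages of Hoxc10 for shYy1 (adjusted p = 0.0573), and ended no other named call beyond Hoxc6 and Hoxc4 in ES oeCtrl against ES; EPS against ES kept 17 calls. At these depths, means near 0.2 CPM are not told from 0.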
